A study of Mus musculus with 4 samples.

Results

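Astrocyte nuclei were chosen here by a rule on counts. A barcode was kept with at least 1000 unique molecular identifiers (UMIs, the tags that mark single RNA molecules) and with at least 1 UMI in at least 3 of the 5 marker genes Slc1a3, Aqp4, Gja1, Ntsr2 and Slc7a10. It could hold at most 1 UMI of the neuron gene Rbfox3, at most 1 in sum of Slc17a7, Gad1 and Gad2, at most 1 of the oligodendrocyte precursor gene Pdgfra, and at most 1 in sum of the cilium genes Cfap299, Dnah12 and Tmem212. The rule found 1177 barcodes of the 43592 with at least 1000 UMIs in 4 libraries. No member barcode was shared between any pair of libraries. The members held 309 and 194 barcodes in the Control libraries and 392 and 282 in the Kat6a-cKO libraries.

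Astrocytes are the glial cells of grey and white matter that wrap synapses and blood vessels. They take up glutamate through the transporters Slc1a2 and Slc1a3, buffer potassium, move water through Aqp4 at their end-feet, and are joined into networks by gap junctions of Gja1 and Gjb6. In the hippocampus they also turn glutamate into glutamine for neurons, make the apolipoprotein E that carries cholesterol between cells, and release thrombospondins and other proteins that act on synapses.

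The study prepared nuclei from hippocampal tissue of adult mice and sequenced their RNA with the 10x Genomics Chromium kit. The 2 Control libraries came from Kat6a-f/f mice, in which loxP sites flank Kat6a in both groups alike, and the 2 Kat6a-cKO libraries from mice that carried NEX-cre in addition. KAT6A is a histone acetyltransferase. NEX-cre is driven from the Neurod6 locus, which is known for its activity in forebrain excitatory neurons. The astrocytes of the Kat6a-cKO mice are thus cells of a brain whose excitatory neurons are the target of the deletion. The labels give no age beyond adult, no sex, no batch, and no word on whether a library was 1 animal or a pool, so a p-value measures the spread between these libraries.

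The libraries held 171323466 to 186897245 counts in all. Summed over the astrocyte barcodes, they held 1459032 and 891350 UMIs in Control, with 1693478 and 1181179 in Kat6a-cKO. The median member had 4552 and 4267.5 UMIs in Control, against 4116.5 and 4042.5 in Kat6a-cKO, so the groups did not overlap. The difference of the mean of the medians was -330 UMIs (exact permutation test over libraries, two-sided, p = 0.333, the smallest that 2 against 2 libraries can give). The Control libraries stood apart in another way: they held 39306 and 50838 barcodes with 500 to 700 UMIs, and the Kat6a-cKO libraries 6781 and 3270. These barcodes served as an estimate of free RNA, which is RNA outside nuclei that also enters droplets with a nucleus, and whether they hold nuclei was not tested. Their make-up differed between the groups. Nuclear long noncoding RNAs summed there to 10489 and 8781 CPM (counts per 1000000 of the summed UMIs) in Control, against 15856 and 16315 in Kat6a-cKO, and 30 astrocyte markers that the rule does not use to 2791 and 2069, against 3639 and 2968.

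The 2 thresholds of the rule differed in how many barcodes lay near them. At the UMI minimum, 1, 1, 1 and 0 members lay within 100 UMIs above it, and 0, 0, 1 and 0 barcodes that met every other limit lay within 100 UMIs below it, in the order Control 1, Control 2, Kat6a-cKO 1, Kat6a-cKO 2. At the marker minimum, 161, 109, 234 and 151 members had exactly 3 markers, and 181, 136, 349 and 128 barcodes were left out with exactly 2. Members with exactly 3 markers held Slc1a2, a gene the rule does not use, at 10308, 10206, 9384 and 10238 CPM. Barcodes with exactly 2 held it at 5693, 5965, 5870 and 6953 CPM. Leaving the latter out therefore leaves out barcodes in which an astrocyte gene was abundant as well.

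The label was checked on 30 other astrocyte genes. For comparison, 3495 oligodendrocyte barcodes and 11100 excitatory neuron barcodes were chosen by rules of the same kind. In all 4 libraries 28 of the 30 genes were higher in the astrocyte sums than in every sum of the other classes, and 25 of them at least 5-fold. These levels are a description, since the barcodes were chosen by genes that go with them. Slc1a2, the main glutamate transporter of forebrain astrocytes, stood at 10815 and 10945 CPM in Control, with 9866 and 10716 in Kat6a-cKO, against 81.7 to 102 in oligodendrocyte and 237 to 261 in excitatory neuron sums. Gpc5, a glypican of the cell surface, ranged from 11580 to 12331 CPM in astrocytes and from 54.1 to 390 in the other classes. Gli3, a transcription factor of the hedgehog pathway, ranged from 950 to 1076 CPM in astrocytes and from 0.757 to 4.29 outside them. Aldh1l1, a folate enzyme widely used to mark astrocytes, ranged from 192 to 233 CPM and from 0.809 to 6.62 outside.

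The exceptions were Kcnj10 and S100b. Kcnj10, the inward-rectifier potassium channel Kir4.1, was at 58.3, 59.5, 56.1 and 45.7 CPM in astrocytes and at 71.9, 56.1, 54.6 and 65.1 in oligodendrocytes, so the classes overlapped. S100b, a calcium-binding protein often used as an astrocyte marker in tissue sections, was at 13, 21.3, 14.8 and 7.6 CPM in astrocytes and at 13.5, 11.5, 19.6 and 16.3 in oligodendrocytes. Both genes are known to be active in oligodendrocytes too.

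**Figure D1:**
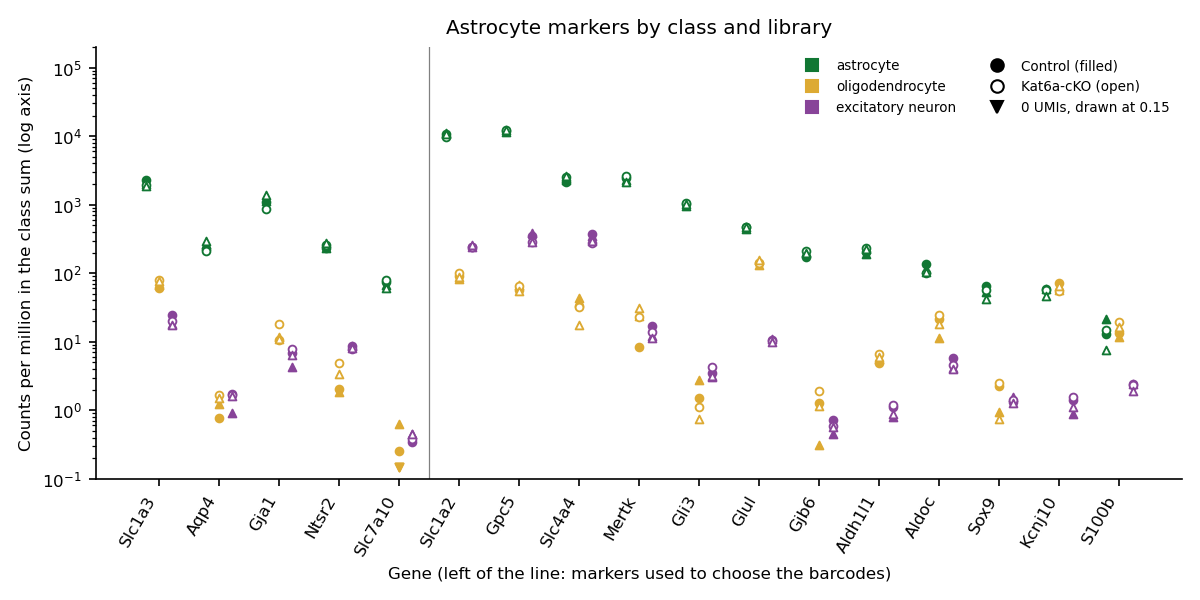
Levels of 17 astrocyte genes in the summed counts of astrocyte, oligodendrocyte and excitatory neuron barcodes of each library, in CPM on a log axis. Circles are replicate 1 and triangles replicate 2 of a group, filled for Control and open for Kat6a-cKO, and the 5 genes left of the line chose the astrocyte barcodes. Slc1a2 lies near 10000 in astrocytes of all 4 libraries, while Kcnj10 and S100b overlap with oligodendrocytes.

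Single nuclei were sparse, and the share of barcodes with a UMI differed between the 5 rule markers. Slc1a3 was found in 99.2% to 100% of members and Gja1 in 94.6% to 99.7%. Ntsr2, a neurotensin receptor, was found in 66.5% to 72.3%, Aqp4 in 51.8% to 59.9%, and Slc7a10, a serine and alanine transporter, in 22% to 30.1%. Excitatory neuron barcodes, which should lack these genes and which were deeper (medians of 18644 to 19848 UMIs), held Slc1a3 in 20.4% to 25.7%, Ntsr2 in 12.2% to 13.5% and Slc7a10 in 0.8% to 0.9%. With each barcode thinned to 1000 UMIs, Slc1a3 remained in 79.1% to 83.8% of members and 1.7% to 2.5% of excitatory neuron barcodes. Thinned Slc7a10 remained in 6.2% to 7.1% of members and in at most 0.1% of excitatory neuron barcodes. Members were chosen by these 5 genes before thinning, so their higher shares in members follow largely from the rule and are no test.

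RNA of other cell types was present in the members. The rule holds Rbfox3 and the sum of Slc17a7, Gad1 and Gad2 to 1 UMI, and 14.5% to 22.7% of members had that 1 UMI of Slc17a7. Snap25, a synaptic mRNA the rule does not limit, was found in 71.4% to 91.8% of members. Free RNA was estimated from 9 neuron mRNAs that the rule does not use, with the barcodes of 500 to 700 UMIs as its profile. It came to 12.7% and 13.7% of the astrocyte UMIs in Control, with 12.1% and 11.8% in Kat6a-cKO, without overlap of the groups. The 9 mRNAs differed widely. Their level in members over that in the profile ranged from 0.055 (Nefl, Kat6a-cKO 1) to 0.32 (Grin1, Control 1). Barcodes of 100 UMIs or fewer were also used as the profile, there with all neuron markers of the list below other than Rbfox3, Slc17a7, Gad1 and Gad2. That estimate was 16.5% and 18.5% in Control, against 18.0% and 17.3% in Kat6a-cKO, so the groups overlapped. The 2 estimates thus differ in genes as well as in profile. The summed level of the 28 neuron markers was 4291 and 4963 CPM in Control, against 4712 and 4514 in Kat6a-cKO, so the groups overlapped. The summed level of the 10 oligodendrocyte markers was 584 and 431 CPM in Control, with 373 and 408 in Kat6a-cKO, against 15579 to 16645 CPM in oligodendrocyte barcodes. The 10 microglia markers summed to 441 and 477 CPM in Control, with 423 and 358 in Kat6a-cKO, and the 12 endothelial and mural markers to 255 and 416 CPM in Control, with 199 and 215 in Kat6a-cKO. In these last 3 lists the Kat6a-cKO libraries were the lower ones. The median log2 fold change of the endothelial and mural list was -1.48 with all members and -0.02 without each gene's highest barcode. Flt1 and Cldn5, at -2.26 and -2.82 with all members, then lacked enough counts, so these medians cover different genes. No marker of these 4 lists was at 0 in all libraries. Markers of oligodendrocyte precursors summed to 117 and 275 CPM in Control, against 148 and 250 in Kat6a-cKO, and those of ependyma and choroid plexus to 69.9 and 122, against 73.2 and 69.4, with 1 of 10 and 4 of 14 genes at 0 in all libraries. The part of these cells' RNA in the results was not tested beyond the values given. No doublet caller was run.

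The share of astrocytes among barcodes with at least 1000 UMIs was 2.81% and 1.79% in Control, against 3.40% and 2.77% in Kat6a-cKO. The means were 2.30% ± 0.72 (SD, n = 2) and 3.08% ± 0.45, and the groups overlapped (exact permutation test, two-sided, p = 0.667). Among astrocyte and oligodendrocyte barcodes together, astrocytes made up 22.1% ± 3.83 in Control and 27.8% ± 0.567 in Kat6a-cKO. These did not overlap and gave the smallest p the design allows (exact permutation test, two-sided, p = 0.333). A share of barcodes depends on how many nuclei of every other type passed the UMI minimum and is not a count of cells in the tissue.

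The targeted gene came first in the comparison of Kat6a-cKO with Control. Kat6a was at 166 and 155 normalised CPM in Control astrocytes and at 132 and 149 in Kat6a-cKO, where normalised CPM are scaled by the trimmed mean of M values (TMM) to make libraries comparable. The log2 fold change was -0.20 with a standard error (SE) of 0.15 (edgeR quasi-likelihood test, Benjamini-Hochberg adjusted p = 0.879). In excitatory neurons Kat6a had a log2 fold change of -0.11 ± 0.06 (SE; edgeR adjusted p = 0.598), a difference that also missed the threshold, so this gene count does not check the genotype labels. In barcodes of 500 to 700 UMIs Kat6a was at 84.1 and 82.8 CPM in Control, against 62.8 and 66.1 in Kat6a-cKO. The part of Kat6a that is deleted is not given in the sources used here, and a count over the whole gene can include RNA from outside that part. The Cre entry in the authors' gene table was at 0 UMIs in both Control sums and in Kat6a-cKO 1 and at 1 UMI in Kat6a-cKO 2 astrocytes. In excitatory neurons it was at 0 CPM in both Control libraries and at 1.94 and 1.69 in Kat6a-cKO, which does check the labels. Neurod6, the locus of the Cre, was at 29.8 and 45.3 normalised CPM in Control, with 14.2 and 18.8 in Kat6a-cKO astrocytes, a log2 fold change of -1.17 ± 0.31 (SE; edgeR adjusted p = 0.215). Neurod6 is a neuron gene, and in barcodes of 500 to 700 UMIs it stood at 267 and 344 CPM in Control, with 155 and 204 in Kat6a-cKO, the same order.

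Few genes passed the threshold in astrocytes. Of 10124 genes with enough counts, 9 were called at an adjusted p under 0.05 (0.0889%), 2 higher in Kat6a-cKO (0.0198%) and 7 lower (0.0691%). At an unadjusted p under 0.05 there were 698 genes (6.89%), 266 higher (2.63%) and 432 lower (4.27%), and DESeq2 called 1 gene, Hbb-bt. The genes called higher were Sgcz and Nrg1. The genes called lower were the 4 adult haemoglobin genes Hbb-bs, Hba-a1, Hba-a2 and Hbb-bt and the ribosomal protein genes Rpl34, Rpl38 and Rps21. These fall into 3 kinds when looked at barcode by barcode.

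The haemoglobin falls rested on 1 barcode in each Control library. Hbb-bs, the major beta chain of red blood cells (chr7:103826534-103828096, minus strand, GRCm38), had 1526 and 253 UMIs in the Control sums and 159 and 44 in Kat6a-cKO. Of these, 1442 in Control 1 and 220 in Control 2 were in a single barcode each, while the highest Kat6a-cKO barcodes held 12 and 2. The same barcode in each Control library held most of the other haemoglobin UMIs, with 2214 haemoglobin UMIs of 8931 in all in Control 1 and 419 of 21674 in Control 2. It also held 31 and 80 UMIs of Flt1 and 14 and 21 of Cldn5, a receptor and a junction protein of endothelial cells, and 3 and 4 of the 5 astrocyte markers. With all member barcodes the log2 fold change of Hbb-bs was -3.30 ± 0.41 (SE; edgeR adjusted p = 0.00017). With each gene's highest barcode left out of every library it was 0.38 (edgeR adjusted p = 0.858), and none of the 4 haemoglobin genes was called. Haemoglobin genes come in near-identical pairs, so the split between Hba-a1 and Hba-a2 and between Hbb-bs and Hbb-bt is uncertain.

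Sgcz rested on few barcodes as well. This gene for zeta-sarcoglycan (chr8:37522298-38661508, minus strand) overlaps 4 other annotated genes. It had 73 and 46 UMIs in Control, with 196 and 139 in Kat6a-cKO, and 104 of the 196 were in 1 barcode and 30 of the 139 in another. The barcode with 104 held 15792 UMIs, 448 UMIs of neuron markers where the median member of that library held 15, 107 UMIs of Dpp10 and 98 of Lingo2, which are neuronal membrane proteins. The log2 fold change was 1.22 ± 0.18 (SE; edgeR adjusted p = 0.0026) with all members and 0.77 (edgeR adjusted p = 0.307) without each gene's highest barcode, although it was called with any 1 library left out. Without any neuron marker UMI in the members it was 0.31 (edgeR adjusted p = 0.951), and DESeq2 gave an adjusted p of 0.0526. In barcodes of 500 to 700 UMIs Sgcz was also higher in Kat6a-cKO, at 308 and 251 CPM against 171 and 127, and with that profile subtracted its log2 fold change was 1.40 (edgeR adjusted p = 0.094). With the profile of barcodes of 100 UMIs or fewer subtracted the call was kept (edgeR adjusted p = 0.00503), with 0 UMIs left in both Control sums, against 37 and 48 in Kat6a-cKO, so no size is given. Dpp10 and Fam155a, which did not pass the threshold with all members, had 107 of 202 and 90 of 307 UMIs in single barcodes of Kat6a-cKO 1.

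Nrg1 was called higher in Kat6a-cKO with and without its highest barcodes. It encodes neuregulin 1, a ligand of ErbB receptors that acts between neurons and glia. It stood at 137 and 140 normalised CPM in Control, with 239 and 281 in Kat6a-cKO, so the groups were apart by far more than the spread within them. The log2 fold change was 0.90 ± 0.15 (SE; edgeR adjusted p = 0.00951). It was found in 23.6% and 21.1% of Control members and in 28.3% and 29.1% of Kat6a-cKO members. Without each gene's highest barcode the log2 fold change was 0.88 (edgeR adjusted p = 0.0228), with 21, 26, 64 and 50 UMIs left out. Leaving out any 1 library kept the call, with adjusted p from 0.000806 to 0.0221, whereas DESeq2 gave 0.0526. The call was lost under 8 of 26 alternatives, DESeq2 among them. With at least 2 markers in place of 3 the log2 fold change was 0.50 (edgeR adjusted p = 0.33). In 5 others of the 8 it was 0.79 without any neuron marker UMI (edgeR adjusted p = 0.116), 0.84 without barcodes holding markers of other glia (0.0957), 0.82 without the subgroup led by Adgrv1 (0.0751), 0.81 at a minimum of 4000 UMIs (0.107) and 0.75 without the limit on cilium genes (0.0632). In barcodes of 500 to 700 UMIs Nrg1 was also higher in Kat6a-cKO, at 296 and 244 CPM against 128 and 121, and with that profile subtracted its log2 fold change was 0.86 (edgeR adjusted p = 0.238). With the profile of barcodes of 100 UMIs or fewer subtracted it was 1.37, and the call was kept (edgeR adjusted p = 0.0229). Astrocyte markers and nuclear long noncoding RNAs were also higher in the Kat6a-cKO barcodes of 500 to 700 UMIs, as given above. Their part in the Nrg1 value after that profile was subtracted was not tested. Among excitatory neurons it had a log2 fold change of 0.47 ± 0.10 (SE), and the difference of the 2 effects was 0.42 ± 0.16 (SE; edgeR adjusted p = 0.687). Erbb4, a receptor of neuregulins, stood at 213 and 149 normalised CPM in Control, with 244 and 338 in Kat6a-cKO astrocytes (edgeR adjusted p = 0.215).

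**Figure D2:**
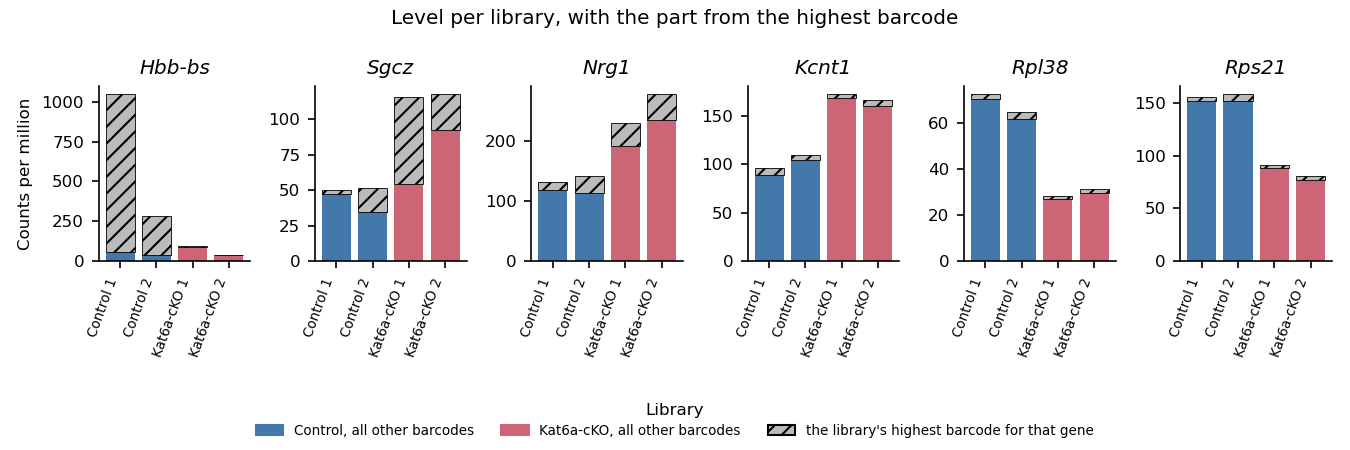
Levels of 6 genes in the summed counts of astrocyte barcodes of each library, in CPM, with the hatched part from the one barcode of that library with most UMIs of the gene. For Hbb-bs the highest barcode makes up nearly the whole Control level (1442 of 1526 UMIs in Control 1), and for Kcnt1, Rpl38 and Rps21 the groups remain apart without it.

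The next genes by p-value among those higher in Kat6a-cKO did not pass the threshold with all members. Kcnt1, a sodium-activated potassium channel (chr2:25863734-25918273, plus strand), was at 99.3 and 108 normalised CPM in Control, with 180 and 169 in Kat6a-cKO, a log2 fold change of 0.75 ± 0.16 (SE; edgeR adjusted p = 0.092). It was found in 25.2% and 29.9% of Control members and 37.5% and 41.1% of Kat6a-cKO members. Without each gene's highest barcode its edgeR adjusted p was 0.0459. Leaving out Control 2 or Kat6a-cKO 2 also brought it past the threshold, with 0.0244 and 0.0303, while without Control 1 or Kat6a-cKO 1 it was 0.181 and 0.392, and DESeq2 gave 0.953. Smoc1, a secreted calcium-binding matrix protein, was at 62.4 and 66.3 normalised CPM in Control, with 105 and 122 in Kat6a-cKO (log2 fold change 0.81 ± 0.18, edgeR adjusted p = 0.11). Thbs4, a thrombospondin, was at 20.6 and 46.4 in Control, against 62.2 and 83.9 in Kat6a-cKO (log2 fold change 1.20 ± 0.28, edgeR adjusted p = 0.121). It passed without Control 2, with a log2 fold change of 1.81 (edgeR adjusted p = 3.46e-06), and without Kat6a-cKO 1, with 1.41 (0.0207). Without Control 1 it was 0.64 (0.511) and without Kat6a-cKO 2 it was 0.99 (0.0873). Arhgap10 and Slc24a4, a sodium, calcium and potassium exchanger, had log2 fold changes of 0.79 and 0.61 (edgeR adjusted p = 0.214 and 0.215). The noncoding RNA Gm48619 was at 5.7 and 8.8 normalised CPM in Control, with 32.6 and 16.3 in Kat6a-cKO (edgeR adjusted p = 0.134).

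Most ribosomal protein genes had negative log2 fold changes, of which 3 passed the test. Of 48 cytosolic ribosomal protein genes, 43 had enough counts, 3 were called lower, and 35 had groups that did not overlap with Kat6a-cKO lower, where 18.6% of all genes tested did. Rpl10 alone had such groups with Kat6a-cKO higher. The median log2 fold change of the 43 was -0.55, against 0.00 for all genes tested. The list was chosen with earlier results of these data known, so these counts are a description and no test. Rpl38 (chr11:114668524-114672331, plus strand) was at 75.2 and 64.1 normalised CPM in Control, with 29.5 and 31.7 in Kat6a-cKO, a log2 fold change of -1.20 ± 0.22 (SE; edgeR adjusted p = 0.0311). Rpl34 (chr3:130726831-130730398, minus strand) was at 79.4 and 73.0 in Control, against 23.4 and 42.8 in Kat6a-cKO, with a log2 fold change of -1.26 ± 0.24. Rps21 (chr2:180257377-180258445, plus strand) was at 161 and 156 in Control, against 94.8 and 81.3 in Kat6a-cKO, with a log2 fold change of -0.84 ± 0.16, and both had an edgeR adjusted p of 0.049. Rplp1 and Rps24, the members of highest level, were at 273 and 290 and at 215 and 220 normalised CPM in Control, against 201 and 191 and 147 and 160 in Kat6a-cKO (edgeR adjusted p = 0.218 and 0.282). These calls lay near the threshold. Without Kat6a-cKO 1 none of the 3 was called (edgeR adjusted p = 0.513 for Rpl34, 0.191 for Rpl38 and 0.0759 for Rps21). Without Control 1 the adjusted p was 0.0692 for Rpl38 and 0.0514 for Rps21, and without Kat6a-cKO 2 it was 0.109 for Rps21. Rpl37 and Rpl35a came next by p, at 95.0 and 92.9 and at 75.9 and 70.8 normalised CPM in Control, against 50.5 and 52.2 and 34.5 and 41.1 in Kat6a-cKO (edgeR adjusted p = 0.107 for each). The noncoding RNA Gm20110 had 27 and 7 UMIs in Control, with 1 and 2 in Kat6a-cKO (edgeR adjusted p = 0.0658). Ribosomal protein genes have many near-identical pseudogenes, and how such reads were assigned is not given in the sources used here.

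Other mRNAs that are abundant in cytoplasm also stood lower in Kat6a-cKO, without passing the threshold. Of 20 such genes 18 were tested, 0 were called by edgeR or DESeq2, 12 were lower at an unadjusted p under 0.05 (background 4.27%), and 16 had groups apart in the lower direction (background 18.6%). Their median log2 fold change was -0.45. This list too was chosen with earlier results of these data known, so its counts are a description. Fth1, the ferritin heavy chain that stores iron, was at 436 and 572 normalised CPM in Control, with 280 and 350 in Kat6a-cKO, and it was called without each gene's highest barcode (edgeR adjusted p = 0.0498). Tmsb4x, which binds actin monomers, was at 929 and 1227 in Control, against 763 and 743 in Kat6a-cKO. Cst3, a secreted protease inhibitor that astrocytes make in quantity, overlapped between the groups, with 1152 and 1347 against 724 and 1378. Of 15 histone genes 9 were tested and 0 called (3 lower at an unadjusted p under 0.05). Their median was -0.52, and H3f3b, a replacement histone, was at 118 and 138 in Control, against 88 and 89 in Kat6a-cKO. Of the 13 mRNAs encoded by mitochondria 10 were tested and 0 called (1 lower at an unadjusted p under 0.05), with a median of -0.15. Nuclear long noncoding RNAs did not separate the groups in any of 7 genes tested (background 36.5% in either direction). Malat1 was at 49022 and 37494 normalised CPM in Control, with 47230 and 43142 in Kat6a-cKO.

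The barcodes used to estimate free RNA differed in these same mRNAs, and whether those barcodes hold nuclei was not tested. In barcodes of 500 to 700 UMIs, Rpl38 stood at 506 and 433 CPM in Control, with 251 and 234 in Kat6a-cKO, Rps21 at 1062 and 945 against 637 and 618, and Fth1 at 3437 and 4136 against 2234 and 2874. The summed level of the 48 ribosomal protein genes there was 22099 and 21721 CPM in Control, with 15220 and 14851 in Kat6a-cKO, and in astrocytes 3060 and 3381 against 2138 and 2113. With the profile of those barcodes subtracted, 22 ribosomal protein genes still had enough counts, their median log2 fold change was -0.16, and 0 were called. Of all 8841 genes tested then, edgeR called 4. Rps21 then had a log2 fold change of -1.12 (edgeR adjusted p = 0.999), and Rpl38 and Rpl34 no longer had enough counts to be tested. With the profile of barcodes of 100 UMIs or fewer subtracted in its place, the median of 30 genes was -1.20 and 5 were called lower. Of all 8802 genes tested in that setting, edgeR called 16, of which 14 were lower. The part of free RNA in the astrocyte result was not tested further than this.

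**Figure D3:**
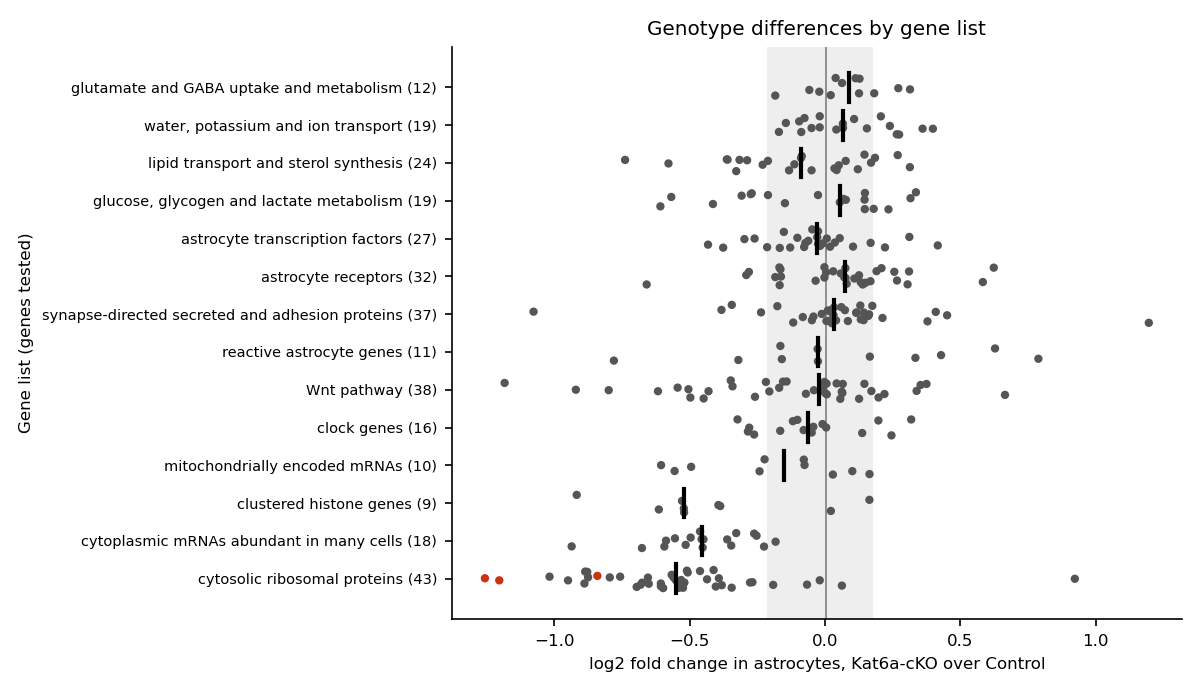
Log2 fold changes in astrocytes, Kat6a-cKO over Control, of each tested gene in 14 lists, without the rule markers (points, with red for an adjusted p under 0.05), the median of each list (black bar), and the median and interquartile range of all 10124 genes tested (grey line and band). Ribosomal protein, cytoplasmic and histone lists have medians of -0.55, -0.45 and -0.52, while the medians of the 10 lists of astrocyte functions shown lie within the grey band (-0.21 to 0.18) and that of the glucocorticoid list, not drawn, is 0.19.

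Genes of astrocyte functions were grouped in 16 lists of 387 genes. The 5 markers of the rule are among them and are left out of the counts below, and of the other 382 genes 279 were tested. edgeR called 0 of them, the smallest adjusted p was 0.121 (Thbs4), 19 had an unadjusted p under 0.05 (6.81%, where 6.89% of all genes tested did), and 90 had groups apart (32.3%, where 36.5% of all genes did). DESeq2 called none of them either. The median log2 fold change was 0.01 and the median SE 0.19, and 251 of the 279 lay within 0.5 of 0. These 2 libraries a group and SEs leave small differences undetectable. Beside the members of highest level in each list, a few of smallest p are named below, chosen after their values were seen.

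Transporters and enzymes of glutamate and GABA held no called gene. Of 13 genes 12 were tested, with a median log2 fold change of 0.09. Slc1a2 was at 11188 and 10786 normalised CPM in Control, with 10285 and 10831 in Kat6a-cKO, a log2 fold change of -0.06 ± 0.11 (SE), and Slc1a3, which the rule used, ranged from 1882 to 2331 over the 4 libraries. Grm3, a metabotropic glutamate receptor, ranged from 857 to 1254. Slc7a11, the cystine and glutamate exchanger, had the smallest p of the list, with 194 and 199 in Control, against 255 and 232 in Kat6a-cKO (edgeR adjusted p = 0.687).

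Ion and water transport genes numbered 19, all tested, with a median of 0.07, and 7 had groups apart in the higher direction (background 17.9%). Trpm3, a cation channel, was at 2445 and 2261 normalised CPM in Control, with 3363 and 2679 in Kat6a-cKO, a log2 fold change of 0.36 ± 0.13 (SE; edgeR adjusted p = 0.49). The highest barcode of Kat6a-cKO 1 held 251 of its 5463 UMIs. Slc4a4, the sodium bicarbonate cotransporter, was at 2199 and 2258 in Control, against 2618 and 2644 in Kat6a-cKO (edgeR adjusted p = 0.721). Dtna, a dystrophin-associated protein, ranged from 2014 to 2385 and Kcnn2, a calcium-activated potassium channel, from 1795 to 1929. Of the gap junction genes, Gja1, which the rule used, was at 1142, 1102, 915 and 1397 and Gjb6 at 179, 198, 221 and 200 normalised CPM in the order of the libraries above, and Gjb2 did not have enough counts.

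Lipid genes numbered 26, of which 24 were tested with a median of -0.09. Apoe was at 2338 and 2996 normalised CPM in Control, with 1655 and 2957 in Kat6a-cKO, so that the spread within the groups exceeded the difference between them. Clu, another apolipoprotein, also overlapped between the groups, with 491 and 679 in Control, against 380 and 724 in Kat6a-cKO. Acsl3, a fatty acid ligase, ranged from 1195 to 1453, and Abca1, a cholesterol exporter, was at 330 and 286 in Control, against 360 and 410 in Kat6a-cKO (edgeR adjusted p = 0.654). Insig1, which holds back sterol synthesis, was at 60.3 and 39.8 in Control, against 31.4 and 29.9 in Kat6a-cKO (edgeR adjusted p = 0.464). Glucose, glycogen and lactate genes numbered 20, of which 19 were tested with a median of 0.06. Phkg1, a subunit of phosphorylase kinase, ranged from 318 to 443, Pygb, the brain glycogen phosphorylase, from 207 to 252, and Aldoc, the brain aldolase, from 104 to 139.

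Metallothioneins and antioxidant genes numbered 14, of which 11 were tested with a median of -0.15. Mt3, the brain metallothionein, was at 284 and 284 normalised CPM in Control, with 209 and 182 in Kat6a-cKO, a log2 fold change of -0.53 ± 0.14 (SE; edgeR adjusted p = 0.215), and its oligodendrocyte log2 fold change was -0.49. Mt1 overlapped, with 446 and 303 against 375 and 263.

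Transcription factors of astrocytes numbered 28, of which 27 were tested, with a median of -0.03 and 0 with groups apart in the higher direction (background 17.9%) and 2 in the lower (18.6%). Zbtb20 ranged from 4638 to 4806 normalised CPM, Npas3 from 3251 to 3741, Nfia, a driver of astrocyte formation, from 2214 to 2602, and Gli3 from 936 to 1122. Of 36 receptor genes 32 were tested with a median of 0.08, and Ntrk2, the BDNF receptor, ranged from 1198 to 1516. S1pr1, a receptor of sphingosine 1-phosphate, was at 233 and 198 in Control, against 110 and 169 in Kat6a-cKO, a log2 fold change of -0.66 ± 0.18 (SE; edgeR adjusted p = 0.225). Its oligodendrocyte log2 fold change was 0.47, at levels of 2.49 to 5.24 CPM. Gabbr2, a subunit of the GABA-B receptor, was at 51.1 and 59.7 in Control, against 99.7 and 66.7 in Kat6a-cKO (edgeR adjusted p = 0.464).

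Of 42 genes for secreted and adhesion proteins that act on synapses, 37 were tested with a median of 0.03. Lsamp ranged from 22679 to 24563 normalised CPM and Ntm from 5199 to 6966, both without separation of the groups. Ncan, a proteoglycan of the matrix around synapses, was at 335 and 332 in Control, against 231 and 296 in Kat6a-cKO (edgeR adjusted p = 0.618). Only 11 of 38 reactive astrocyte genes had enough counts, and 12 were at 0 UMIs in all libraries. Gfap, the intermediate filament that rises in reactive astrocytes, was at 167 and 153 in Control, against 160 and 154 in Kat6a-cKO, a log2 fold change of -0.03 ± 0.15 (SE), and Vim ranged from 36.9 to 47.5. Of 19 neural stem cell genes 10 were tested, and besides Thbs4, which is on this list as well, Lrig1 was at 184 and 171 in Control, against 236 and 187 in Kat6a-cKO, and Hopx at 51.8 and 48.6 against 35.7 and 39.4 (edgeR adjusted p = 0.816 and 0.765).

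The title speaks of RSPO2 and Wnt signals in the hippocampal field CA3. Of 70 Wnt pathway genes 38 were tested in astrocytes, with a median of -0.02 and 0 called by edgeR (3 at an unadjusted p under 0.05, where 6.89% of all genes tested were). Znrf3, a ubiquitin ligase that removes Wnt receptors, ranged from 595 to 725 normalised CPM, Tle4 from 441 to 530, Tcf7l2, the main TCF factor of these nuclei, from 430 to 532, and Daam2 from 381 to 523. Lef1, another TCF factor, was at 40.4 and 58.6 in Control, against 24.0 and 27.4 in Kat6a-cKO, a log2 fold change of -0.92 ± 0.26 (SE; edgeR adjusted p = 0.273). Of its 53 UMIs in Control 2, 21 were in 1 barcode. Lrp6, a Wnt coreceptor, was at 195 and 167 in Control, against 230 and 230 in Kat6a-cKO (edgeR adjusted p = 0.644). The list of Kat6a and its partners held no called gene either: of 8 genes, Kat6a among them, 6 were tested. Kat6b, the paralog of Kat6a, was at 263 and 210 in Control, against 258 and 216 in Kat6a-cKO.

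Of 20 glucocorticoid response genes 17 were tested with a median of 0.19, and 6 had groups apart in the higher direction (background 17.9%). Fkbp5, a chaperone of the glucocorticoid receptor, was at 281 and 446 normalised CPM in Control, with 516 and 450 in Kat6a-cKO, a log2 fold change of 0.43 ± 0.17 (SE; edgeR adjusted p = 0.565). Zbtb16 was at 673 and 626 in Control, against 753 and 772 in Kat6a-cKO, and Hif3a at 434 and 399 against 524 and 454 (edgeR adjusted p = 0.774 and 0.803). Of 19 clock genes 16 were tested with a median of -0.06, and Rora, a nuclear receptor, ranged from 4322 to 5234. Of 26 immediate early genes 13 were tested, with 0 called and 2 lower at an unadjusted p under 0.05 (background 4.27%). Jun was at 52.5 and 54.2 in Control, against 35.7 and 30.8 in Kat6a-cKO, and Klf2 at 15.6 and 60.8 against 8.0 and 10.3 (edgeR adjusted p = 0.464 and 0.161). Klf2 is known from endothelial cells and was among the leading genes of the subgroup that held the haemoglobin barcodes.

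The same comparison was made in the 2 other classes. In oligodendrocytes edgeR called 0 of 11807 genes (0%; 799 at an unadjusted p under 0.05, 6.77%). Of the 48 ribosomal protein genes 47 were tested there, 41 had groups apart in the lower direction (background 18.3%), and the median was -0.50. In excitatory neurons 5 of 19373 genes were called (0.0258%; 2058 at an unadjusted p under 0.05, 10.6%), 2 of them ribosomal protein genes, 41 of 48 had groups apart in the lower direction (background 22.3%), and the median was -0.53. Rpl34 had a log2 fold change of -1.32 ± 0.19 (SE) in oligodendrocytes and -1.13 ± 0.15 in excitatory neurons. The effect in astrocytes minus that in oligodendrocytes was 0.03 ± 0.26 for Rpl34, -0.29 ± 0.26 for Rpl38 and -0.13 ± 0.19 for Rps21 (edgeR adjusted p = 1 for each). All 3 classes come from the same libraries, and a p that misses the threshold does not show that the classes act alike.

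The genotype difference itself was tested between classes by the interaction of class and genotype with the library as a block. Against oligodendrocytes, 7 of 12219 genes were called (0.0573%), 1 with a higher value in astrocytes (0.00818%) and 6 with a lower one (0.0491%), and 631 genes had an unadjusted p under 0.05 (5.16%). Without each gene's highest barcode 0 were called, and Flt1 then lacked enough counts to be tested. The lower ones included the 4 haemoglobin genes, Flt1 and Sorcs1. Without the highest barcodes the difference for Sorcs1 was -1.16 ± 0.27 (SE; edgeR adjusted p = 0.154), against -1.23 ± 0.25 with them. The higher one was Lingo2, a neuronal leucine-rich repeat protein, at 62.4 and 102 normalised CPM in Control, with 191 and 83.0 in Kat6a-cKO astrocytes, where 98 of the 311 UMIs of Kat6a-cKO 1 were in 1 barcode. Its call was lost without Control 1 (edgeR adjusted p = 0.378) and without Kat6a-cKO 1 (0.901). Flt1 lost its call without Control 2 (0.99) and without Kat6a-cKO 1 (0.964), and Hbb-bt without Kat6a-cKO 1 (0.787). Trpm3, Kcnk2, Car10 and Dpp10 came next, with differences of 0.65, 1.22, 1.28 and 1.24 that did not pass (edgeR adjusted p = 0.0913 to 0.159). Without the highest barcodes the difference for Dpp10 was 0.16. Dpp10 was called without Kat6a-cKO 2 (1.53, edgeR adjusted p = 0.000187) and was at 0.60 without Kat6a-cKO 1. Kcnk2 was called without Kat6a-cKO 1 (1.86, 0.00238) and was at 0.80 without Kat6a-cKO 2, and Car10 was called without Control 1 (1.57, 0.0495).

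Against excitatory neurons, 43 of 18806 genes were called (0.229%), 22 with a higher value in astrocytes (0.117%) and 21 with a lower one (0.112%), and 867 genes had an unadjusted p under 0.05 (4.61%). The count was 32 without each gene's highest barcode, 30 of them among the 43. It was 4, all lower, at a mean of at least 10 CPM, 6 after thinning, and 23, 52, 9 and 26 without Control 1, Control 2, Kat6a-cKO 1 and Kat6a-cKO 2. Thinning here drew every class sum of each library down to the smallest of these sums. None of the differences above 0 named below was called at the 10 CPM minimum. For Stxbp6, Igfbp5 and Cnksr3 the neurons had the larger change. Stxbp6, which binds SNARE proteins, had a log2 fold change of 0.31 in astrocytes and -0.53 in excitatory neurons, a difference of 0.84 ± 0.15 (SE; edgeR adjusted p = 8.78e-05). Igfbp5, an insulin-like growth factor binding protein, had a log2 fold change of 0.03 and -1.02, a difference of 1.05 ± 0.21. Cnksr3 had a log2 fold change of 0.29 and -1.43, and its difference of 1.70 was not called without the highest barcodes (1.21, edgeR adjusted p = 0.54) and turned to -2.25 after thinning (0.967). Erbb4 had the larger change in astrocytes, 0.66 against -0.14. Efna5, an ephrin, had a log2 fold change of -0.67 and 0.68, a difference of -1.33 ± 0.21. Subgroup 4, described below, held 51.6%, 52.3%, 26.2% and 45.3% of the Efna5 UMIs of the members, and without it the astrocyte log2 fold change was -0.36. With 1 library left out, 2 of 4 calls were lost for each of 4 genes. Without Control 1 the edgeR adjusted p was 0.285 for Stxbp6, 0.338 for Igfbp5 and 0.14 for Efna5. Without Kat6a-cKO 1 it was 0.428 for Stxbp6 and 1 for Efna5, whose difference was then -0.67. Without Kat6a-cKO 2 it was 0.288 for Igfbp5 and 1 for Erbb4, whose difference was then 0.40, and without Control 2 it was 0.166 for Erbb4. Cnksr3 lost its call without Kat6a-cKO 2 (0.234). Trpm3 had a log2 fold change of 0.36 in astrocytes, -0.28 in excitatory neurons and -0.33 in oligodendrocytes. Its difference from excitatory neurons, singled out here after its values were seen, was 0.62 ± 0.14 (SE; edgeR adjusted p = 0.00672, and 0.00507 without the highest barcodes). At a mean of at least 10 CPM it was not called, and its value with 1 library left out is not given. Excitatory neuron barcodes pool all such neurons of the dissected tissue, and the mix of neuron types in each library was not tested.

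**Figure D4:**
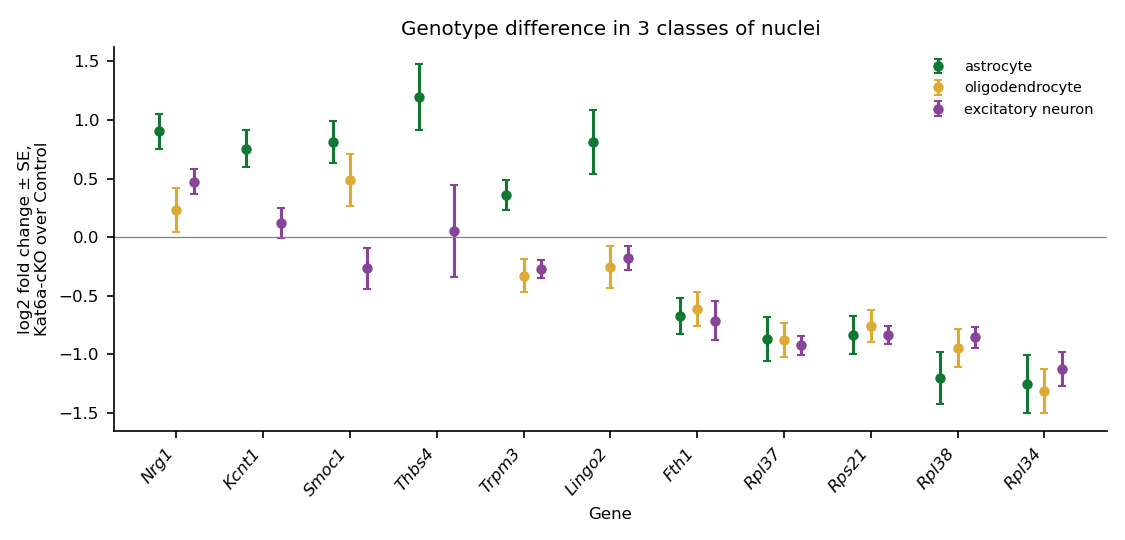
Log2 fold changes, Kat6a-cKO over Control, with standard errors, of 11 genes in the summed counts of astrocyte, oligodendrocyte and excitatory neuron barcodes (Kcnt1 and Thbs4 did not have enough counts in oligodendrocytes). Fth1 and the 4 ribosomal protein genes have negative values in all 3 classes, and Trpm3 is on opposite sides of 0 in astrocytes and in the other classes.

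Clustering split the members into 8 subgroups (Leiden, resolution 0.5), called here by number and leading genes, which made the clusters and are no test. Subgroups 0, 1 and 2, with 388, 325 and 219 barcodes, were led by Pde10a, Luzp2 and Smoc1, by Kcnj3, Dcc and Zfhx4, and by Spon1, Kcnd2 and Trpm3. In all 3 Slc1a2 stayed between 8668 and 11660 CPM in every library. Subgroup 3, with 109 barcodes, was led by Igfbp5, Slc38a1, Gfap and Thbs4, and all 4 genes fixed as markers of fibrous astrocytes (Gfap, Vim, Id3 and Aqp4, the last also used by the rule) were among its 15 leading genes, next to mt-Rnr2 and Apoe, so it is called fibrous astrocyte-like. Subgroup 4, with 79 barcodes, was led by Adgrv1, Kcnip1 and Lrrc1 and had Slc1a3 at 3482 to 4460 CPM, against 1666 to 2352 in subgroups 0 to 3, and Rorb at 138 to 278 CPM against 760 to 1312.

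Subgroups 5, 6 and 7 held 57 barcodes led by genes of other cell types. Subgroup 5 (23 barcodes) was led by haemoglobin genes, Flt1 and neuron genes such as Lingo2 and Opcml, subgroup 6 (21 barcodes) by the oligodendrocyte genes St18, Mobp and Mbp, and subgroup 7 (13 barcodes) by Inpp5d, a microglia gene. Their median UMI counts were 6250, 6259 and 5179, above the 3689 to 4313 of subgroups 0 to 4. Without these 57 barcodes edgeR called 8 genes, of which 4 were called with all members: Nrg1, Rpl34, Rpl38 and Rps21. The other 4 were Thbs4, Erbb4, Gm20110 and Gm47283. Thbs4 then had a log2 fold change of 1.48 (edgeR adjusted p = 0.00881) and Erbb4 of 0.87 (edgeR adjusted p = 0.0178).

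The shares of the subgroups did not separate the groups beyond what 2 against 2 libraries allow. Subgroup 4 made up 9.06% and 9.28% of Control members and 3.57% and 6.74% of Kat6a-cKO members, the one subgroup without overlap (exact permutation test, two-sided, p = 0.333). Subgroup 3 made up 6.80% and 13.9% in Control, with 8.93% and 9.22% in Kat6a-cKO (p = 1, exact permutation test). Sorcs1, a sorting receptor singled out after its values were seen, was at 247 and 203 CPM in subgroup 4 of Control and 157 and 124 of Kat6a-cKO, and at 0 to 51.9 CPM in subgroups 0 to 3. It was also high in subgroup 6, at 75.1 to 553 CPM. Its sum over members was 51.8 and 52.0 normalised CPM in Control, with 17.9 and 28.2 in Kat6a-cKO (edgeR adjusted p = 0.11). The log2 fold change of Sorcs1 was -1.20, and -1.06 without subgroup 4 (edgeR adjusted p = 0.372). It was -0.92 without subgroups 5 to 7 (edgeR adjusted p = 0.386) and -0.87 without barcodes holding markers of other glia (edgeR adjusted p = 0.469). Oligodendrocyte sums held Sorcs1 at 687 to 814 normalised CPM. Without subgroup 4, 5 genes were called in the astrocyte comparison.

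Among subgroups 0 to 4, Nrg1 and Thbs4 were highest in the fibrous astrocyte-like subgroup in every library. There Nrg1 was at 485 and 313 CPM in Control, with 961 and 1007 in Kat6a-cKO, found in 9 of 21, 7 of 27, 16 of 35 and 14 of 26 barcodes. In subgroup 0 it was at 192 and 125 CPM in Control, with 196 and 299 in Kat6a-cKO, and in subgroup 2 at 25.8 to 56.8 CPM. Subgroup 5, with its neuron genes, held Nrg1 at 737 to 1617 CPM and 11.9%, 37.0%, 17.7% and 24.1% of its UMIs, while without subgroups 5 to 7 its log2 fold change was 0.96 (edgeR adjusted p = 0.00881). Thbs4 in the fibrous astrocyte-like subgroup was at 106 and 78.4 CPM in Control, with 366 and 332 in Kat6a-cKO. Since the clusters were made with these genes, these levels are a description with no test.

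Kcnt1 had another distribution. In subgroup 0 it was at 82.2 and 87.9 CPM in Control, with 178 and 148 in Kat6a-cKO, in subgroup 1 at 45.7 and 82.1 against 159 and 151, and in subgroup 2 at 190 and 139 against 258 and 254. The groups did not overlap in any of these 3. Kcnt1 was named from the same members, among genes whose groups did not overlap, so these levels are a description with no test. In subgroup 3 it was at 154 and 226 in Control, against 136 and 152 in Kat6a-cKO, the opposite order. In barcodes of 500 to 700 UMIs Kcnt1 was at 10.6 and 10.6 CPM in Control, with 21.0 and 16.7 in Kat6a-cKO.

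**Figure D5:**
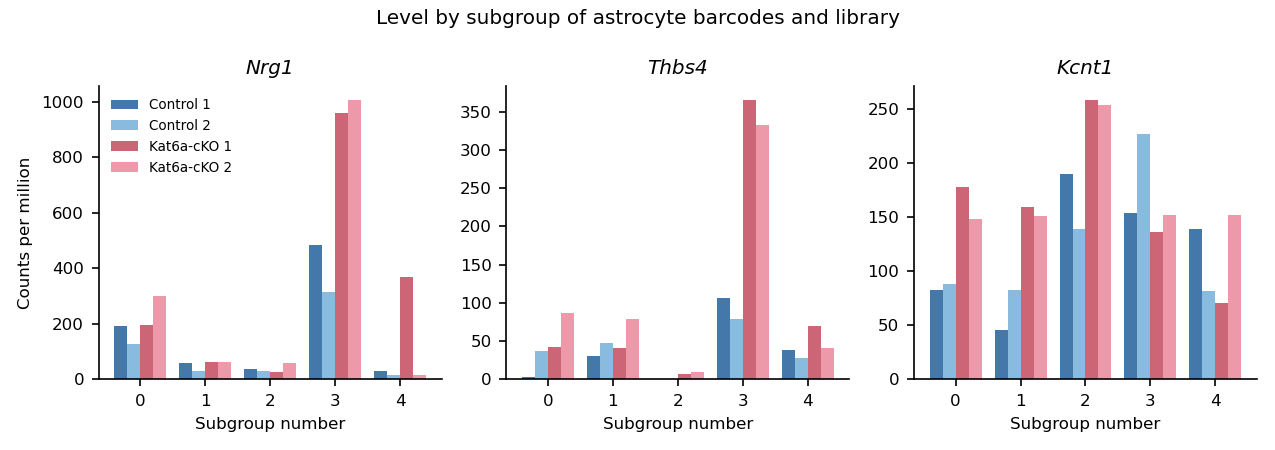
Levels of Nrg1, Thbs4 and Kcnt1 in the summed counts of astrocyte subgroups 0 to 4 of each library, in CPM. Nrg1 and Thbs4 are highest in subgroup 3 (961 and 1007 in Kat6a-cKO against 485 and 313 in Control for Nrg1), and Kcnt1 is higher in both Kat6a-cKO libraries in subgroups 0, 1 and 2.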

How the data were processed

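The authors deposited raw UMI counts per barcode and gene for each library. Per the submitters' processing notes, the genome build was mm10 and Seurat 4.0.1 was used. The aligner, annotation, strand use and UMI handling are not given in the sources used here. Depth per library stands in the report. The members, gene lists and tests were chosen with earlier results of these data known. No doublet caller was run. Gene positions are from the GENCODE annotation of GRCm38, the build named mm10 in the notes.

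Counts were summed over the members of each library and tested with edgeR 4.0.16 (R 4.3.3; filterByExpr, TMM, quasi-likelihood, Benjamini-Hochberg adjusted p under 0.05), 2 Control against 2 Kat6a-cKO libraries. Differences between classes were interaction terms with the library as a block. Named genes were all those called, the 10 of smallest p in each direction, the 4 of highest level in each of 29 lists, and 5 in each direction of an interaction; a few of these are not reported here. Subgroups came from Leiden clustering (scanpy 1.11.5, leidenalg 0.10.2; 2000 variable genes, 20 components, 15 neighbours, resolution 0.5). Shares were compared by exact permutation tests (scipy 1.17.1). The fit was tested on simulated sums with the same dispersion for all genes. Single barcodes were not simulated, so calls that rest on a single barcode were not covered. The 26 alternatives covered limits of the rule, thinning, free RNA, filters, normalisation, DESeq2 1.42.0, the replicate block and leaving out single libraries. Thinning there drew each library's summed counts down to the smallest sum, taken over all classes for differences between classes. Only the detection shares used barcodes thinned to 1000 UMIs.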

Additional observations from a re-analysis of the deposited data

Results flagged for a closer look

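A difference between the classes was called by the interaction test for the genes below, given as the log2 fold change in astrocyte barcodes minus that in the other class. Against oligodendrocyte barcodes it was 0.96 for Lingo2, -3.62 for Hbb-bs, -3.36 for Hba-a1, -3.22 for Hba-a2, -2.26 for Hbb-bt and -4.34 for Flt1. When the highest barcode of each gene was left out of each library, Flt1 lacked enough counts to be tested, and none of the others was called (571 genes then had an unadjusted p under 0.05 in edgeR).

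Against excitatory neuron barcodes the named differences were 0.84 for Stxbp6, 0.79 for Erbb4, 0.95 for Lingo2, 1.70 for Cnksr3, 1.05 for Igfbp5 and -1.33 for Efna5. The haemoglobin genes gave -3.35 for Hbb-bs, -3.17 for Hba-a1, -2.86 for Hba-a2 and -2.26 for Hbb-bt. At a mean of at least 10 CPM none of the differences above 0 was called. Without the highest barcodes Stxbp6 (0.81, edgeR adjusted p = 0.000406), Erbb4 (0.71, 0.0135), Igfbp5 (1.16, 0.0018) and Efna5 (-1.37, 5.36e-06) were called, while Lingo2 (0.70, 0.0669) and Cnksr3 (1.21, 0.54) were not. With 1 library left out, Stxbp6 (down to 0.62, edgeR adjusted p up to 0.428), Erbb4 (0.40, up to 1), Igfbp5 (0.85, up to 0.338), Efna5 (-0.67, up to 1) and Lingo2 (0.37, up to 1) each kept 2 of 4 calls, and Cnksr3 kept 3. Against oligodendrocytes Lingo2 and Flt1 kept 2 of 4 and Hbb-bt 3.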

How the results depend on the processing

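There were 2 libraries a group and a class of 194 to 392 barcodes each. The genes called changed with single barcodes, the limits of the rule, the filter, the method and the libraries used. Stricter limits also left fewer members, and the part of that in the counts below was not tested. In place of 9 genes, edgeR called 2 with at least 4 markers, 1 without any neuron marker UMI (0 of the 9), 1 without barcodes holding markers of other glia, 16 and 4 after subtracting free RNA measured at up to 100 and at 500 to 700 UMIs, 16 after thinning, 5 without the Adgrv1 subgroup, 46 without a filter on low counts, and DESeq2 called 1. Leaving out 1 library gave 9 to 46. The libraries share only a number, and same-numbered libraries had a correlation of deviations of 0.154 over 3663 genes. With the replicate block 137 genes were called. The 7 called differences from oligodendrocytes became 4 under a minimum of 10 CPM, RLE normalisation, 2000 UMIs and thinning, 0 without the highest barcodes, and 12 to 23 with a library left out. The 43 differences from excitatory neurons became 4 under the 10 CPM minimum, 6 after thinning and 9 to 52 with a library left out. The astrocyte share difference was 0.129 to 1.58 percentage points over the alternatives and 0.279 to 1.30 with a library left out. No test was run with a library left out, and 2 against 2 libraries cannot reach the threshold. The 1.58 came from the minimum of 500 UMIs. There 315 and 199 members were set against 51879 and 64915 barcodes in Control, and 396 and 286 against 19142 and 14328 in Kat6a-cKO.

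Signs turned for the haemoglobin genes. Without neuron marker UMIs, without other glia, without the highest barcodes and without the mixed subgroups, the log2 fold change was 0.47, 0.32, 0.38 and 0.36 for Hbb-bs, 0.43, 0.61, 0.65 and 0.72 for Hba-a2 and 0.47, 0.36, 0.30 and 0.36 for Hbb-bt, and Hba-a1 was at 0.057 in the first. Without the highest barcodes the difference from oligodendrocytes was 0.38 for Hba-a2 and 0.51 for Hbb-bt, and that from excitatory neurons 0.19 for Hbb-bs, 0.68 for Hba-a2 and 0.51 for Hbb-bt. After thinning, the difference for Cnksr3 was -2.25. Beyond the composition of each alternative, the cause was not tested. The free RNA settings at 500 to 700 UMIs and those on single barcodes and subgroups were chosen after seeing the data.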
